A study of Mus musculus with 3 samples.

Results

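The genes described here are 6 genes grouped under the name natural killer (NK) receptor genes on CD8 T cells. They are Klrd1, Klrk1, Klrc1, Klrg1, Crtam and Cd7, taken by name from the 14811 genes of 1 droplet RNA library of mouse T cells. All 6 were found in the gene table. The cells had been sorted from B16F10 tumors, a transplantable mouse melanoma line, pooled from 10 mice given either purified CD45.1 CD4+ T cells or purified CD45.2 CD8+ T cells by vein 1 day after the tumor cells, and collected on day 11. CD45.1 and CD45.2 are congenic marks that separate the transferred CD4 from the transferred CD8 cells, whose receptor repertoire was not restricted to 1 specificity. There were 4 sorted populations, namely CD45.2 CD8+CD4+, CD45.2 CD8+, CD45.1 CD4+CD8+ and CD45.1 CD4+. Each was hashtagged before pooling. The labels call the treatment untreated and do not give the strain, sex or age of the mice, and all populations share the tumor, the transfer and the library. No label ties hashtag numbers 1 to 4 to a population, so cells were grouped by the authors' identity and class: 313 Cd8-identity Tdp cells, 2681 cells of the Cd8 class, 93 Cd4-identity Tdp cells and 2477 cells of the Cd4 class. Tdp is the authors' name for cells that all had an RNA count for both Cd4 and Cd8a.

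A unique molecular identifier (UMI) marks 1 captured RNA molecule, and levels are UMIs summed over a class and given as CPM, which scales every class to the same total. The 4 classes held 1887857 UMIs (Cd8-identity Tdp), 13567317 (Cd8 class), 574490 (Cd4-identity Tdp) and 10733467 (Cd4 class), with medians of 4981, 4159, 4668 and 3478 UMIs per cell. Because there is 1 library, no difference has a replicate check and none was tested. Ranges in brackets are 95% intervals that cover counting error only, and the 4 hashtag numbers are parts of the same library. Genes with 20 UMIs or more over both classes were measured, and those past 1.5-fold are called higher or lower. Summed levels cannot tell fewer cells with a gene apart from less RNA in each.

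The co-receptor genes followed the class names. Cd8b1 stood at 1385 CPM in Cd8-identity Tdp cells, 1552 in the Cd8 class, 587 where Tdp cells had a Cd4 identity and 82.2 in the Cd4 class. Cd4 stood in the same order at 239, 9.22, 348 and 271 CPM. The Cd8 class was not pure T cells. NK cells are marked by Ncr1, which encodes the activating receptor NKp46, and by Klrb1c, which encodes NK1.1, and 72 cells with a UMI of either gene were present: 3 among Cd8-identity Tdp cells, 55 in the Cd8 class, 0 among Cd4-identity Tdp cells and 14 in the Cd4 class. A UMI of a Cd3 gene, which encode the signalling chains of the T cell receptor, was found in 54 of the 72. Levels below leave these cells out unless all cells are named, which leaves 310, 2626, 93 and 2463 cells.

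NK receptors on T cells set the threshold at which a T cell acts, beside the T cell receptor. Klrd1 encodes CD94, which pairs with the product of Klrc1, NKG2A, into an inhibitory receptor for the MHC molecule Qa-1, the product of H2-T23. With NKG2C, the product of Klrc2, CD94 forms an activating receptor instead. Klrk1 encodes NKG2D, an activating receptor that reads stress-induced ligands of the RAE-1, H60 and MULT1 families and signals through the adaptor DAP10, encoded by Hcst. Klrg1 encodes an inhibitory receptor for cadherins and marks short-lived effector CD8 T cells as well as some regulatory T cells. Crtam encodes an adhesion receptor for CADM1 that activated CD8 T and NK cells carry, and Cd7 encodes a co-stimulatory receptor of the immunoglobulin superfamily.

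In the mouse genome (GRCm38.p6, the assembly of the mm10 build named by the submitters, with RefSeq genes), 3 of the 6 genes are neighbours in the NK gene complex on chromosome 6: Klrd1 at chr6:129588092-129598775, Klrk1 at chr6:129610323-129623903 and Klrc1 at chr6:129666015-129682852, 94.8 kb from end to end. Klrc3 and Klrc2 lie between Klrk1 and Klrc1. Klrg1 lies on the same chromosome at chr6:122270596-122282833, 7305 kb from Klrd1. Crtam is at chr9:40972798-41004628 and Cd7 at chr11:121036747-121039478. RefSeq promoter sequence was at hand for Klrk1 and Klrc1 and for no other member. The 250 bases before the start of these genes are shown for that reason. Both genes are on the minus strand and are printed 5′ to 3′ in their own direction, with capitals marking the core letters bound by RUNX factors, the family that includes the CD8 lineage factor Runx3.
Klrk1: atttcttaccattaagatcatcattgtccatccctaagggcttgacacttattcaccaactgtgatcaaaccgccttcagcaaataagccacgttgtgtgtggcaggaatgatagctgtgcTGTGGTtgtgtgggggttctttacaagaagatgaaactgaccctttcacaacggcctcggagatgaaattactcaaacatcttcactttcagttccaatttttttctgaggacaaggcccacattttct
Klrc1: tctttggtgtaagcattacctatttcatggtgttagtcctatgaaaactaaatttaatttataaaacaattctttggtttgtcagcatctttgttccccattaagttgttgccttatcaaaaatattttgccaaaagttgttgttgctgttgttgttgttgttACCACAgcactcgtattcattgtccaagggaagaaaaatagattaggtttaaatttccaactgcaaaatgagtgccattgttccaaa

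The Klrk1 window is chr6:129623865-129624114 and the Klrc1 window is chr6:129678974-129679223, which lies inside the annotated span of Klrc1. Each window held the RUNX letters once, on the gene's strand as TGTGGT beginning 129 bases before the start of Klrk1, and as ACCACA beginning 87 bases before the start of Klrc1. The same letters on either strand were found in 14.0% of 32851 RefSeq promoter windows of this length. The T-box letters GGTGTG (either strand, found in 16.3% of windows) and the E-box letters CAGGTG (either strand, found in 17.2%) were in neither. A match of letters is not a binding site, and these data hold no binding measurement.

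In the Cd8 class 5 of the 6 genes were higher than in the Cd4 class and Klrg1 was lower, both over all cells and without the cells holding Ncr1 or Klrb1c UMIs. Of 11740 genes measured over all cells, 10.2% were higher and 8.42% lower by the same rule (10.2% and 8.6% without those cells). The median log2 ratio of the 6 genes was 2.13 beside -0.01 over all measured genes. For all 6 genes the levels of the 4 hashtag numbers did not overlap between the Cd8 class and the Cd4 class, and the direction was the same in 4 of 4 numbers. The share of all genes whose hashtag levels do not overlap was not counted, here or in the comparisons below. The name NK receptor genes on CD8 T cells matches the direction of 5 genes and not that of Klrg1. Because the members were chosen with earlier results of these data known, this match is no check of the name.

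Klrd1, the CD94 chain, had 229, 182, 220 and 252 CPM in Cd8-identity Tdp cells of hashtag numbers 1, 2, 3 and 4, and 241, 259, 265 and 263 CPM in the Cd8 class. It had 108, 144 and 181 CPM in Cd4-identity Tdp cells of numbers 1, 2 and 4, and 77.8 CPM in number 3, which held 9 such cells. The Cd4 class had 42.7, 55.0, 77.7 and 54.9 CPM. The order of the class levels was Cd8 class, Cd8-identity Tdp, Cd4-identity Tdp, Cd4 class, and each class with at least 20 cells in a number stood apart from the next one except the first pair. The nearest levels of the Tdp classes, 182 and 181 CPM, were almost equal. Over all cells Klrd1 was 4.67-fold higher (4.29 to 5.10) in the Cd8 class than in the Cd4 class, and 5.13-fold higher (4.68 to 5.63) without the cells holding NK genes.

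Klrk1, the activating receptor NKG2D, had 167, 104, 203 and 119 CPM in Cd8-identity Tdp cells and 172, 191, 202 and 187 CPM in the Cd8 class. It had 62.0, 65.2 and 36.1 CPM in Cd4-identity Tdp cells of numbers 1, 2 and 4, and 44.5 in the 9 cells of number 3, beside 34.3, 42.1, 52.2 and 35.4 CPM in the Cd4 class. Cells with a Cd4 identity were low whatever their class, and their ranges overlapped. The Cd8 class was 4.83-fold higher (4.37 to 5.36) than the Cd4 class over all cells.

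Klrc1, the inhibitory partner NKG2A, had 153, 130, 155 and 105 CPM in Cd8-identity Tdp cells and 129, 178, 197 and 170 CPM in the Cd8 class. It had 101, 32.6 and 28.9 CPM in Cd4-identity Tdp cells of numbers 1, 2 and 4, and 55.6 in number 3, beside 35.1, 46.0, 66.2 and 54.9 CPM in the Cd4 class. Number 1 was the lowest of the 4 in the Cd8 class and the highest in Cd4-identity Tdp cells. The Cd8 class was 4.03-fold higher (3.65 to 4.46) than the Cd4 class without the cells holding NK genes.

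Crtam, the adhesion receptor, had 34.7, 41.3, 20.7 and 41.2 CPM in Cd8-identity Tdp cells and 16.4, 45.9, 42.3 and 34.1 CPM in the Cd8 class, against 2.09, 1.39, 7.64 and 5.49 CPM in the Cd4 class. Cd4-identity Tdp cells gave 7 UMIs in all, at 12.2 CPM (4.92 to 25.2). In the Cd4 class it was close to 0 in every number. The fold of the Cd8 class over the Cd4 class was 12.6 (8.82 to 18.6) over all cells.

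Cd7, the co-stimulatory receptor, had 246, 277, 317 and 252 CPM in Cd8-identity Tdp cells, and 265, 376, 397 and 373 CPM in the Cd8 class. It had 69.7, 233 and 260 CPM in Cd4-identity Tdp cells of numbers 1, 2 and 4, and 356 in number 3, against 61.5, 97.5, 121 and 86.6 CPM in the Cd4 class. Number 1 had the lowest Cd7 level in all 4 classes. The Cd8 class was 4.61-fold higher (4.29 to 4.96) than the Cd4 class over all cells.

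Klrg1 ran the other way. It had 10.4, 18.3, 10.3 and 28.5 CPM in Cd8-identity Tdp cells and 14.5, 18.6, 18.1 and 20.3 CPM in the Cd8 class. It had 46.5, 23.3 and 21.7 CPM in Cd4-identity Tdp cells of numbers 1, 2 and 4, with 0 UMIs in number 3, and 59.4, 55.0, 49.7 and 78.7 CPM in the Cd4 class. The highest number of the Cd8 class thus lay below the lowest number of the Cd4 class. The Cd8 class was 3.03-fold lower (2.63 to 3.51) over all cells and 3.33-fold lower (2.87 to 3.88) without the cells holding NK genes.

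**Figure D1:**
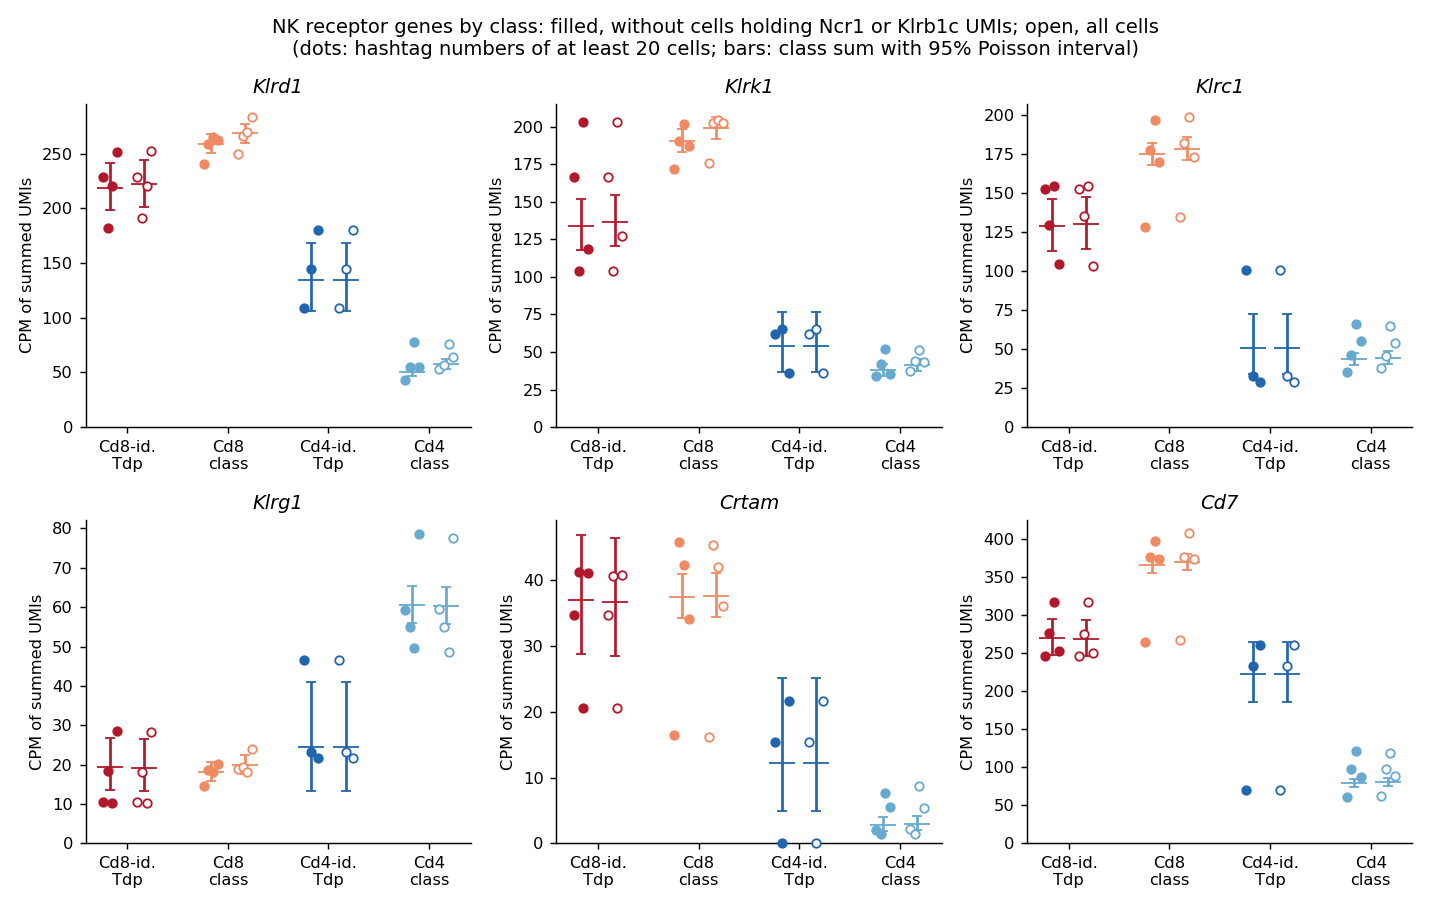
Levels of the 6 genes in CPM of summed UMIs (vertical axes) in the 4 classes, without cells holding a Ncr1 or Klrb1c UMI; bars are class sums with 95% Poisson intervals and points are hashtag numbers. Klrd1, Klrk1, Klrc1, Crtam and Cd7 are highest in the 2 Cd8-identity classes, and Klrg1 is highest in the Cd4 class at 60.5 CPM.

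When every cell was thinned to 2000 UMIs, which leaves out shallower cells and keeps 306, 2449, 89 and 2231 cells, Klrd1 was found in 35.6% of Cd8-identity Tdp cells, 35.5% of the Cd8 class, 13.5% of Cd4-identity Tdp cells and 6.54% of the Cd4 class. Its unthinned shares, in the same order, were 58.1%, 50.3%, 41.9% and 11.0%. Thinned shares of Klrk1 were 23.5%, 26.6%, 10.1% and 6.23%, and those of Klrc1 were 16.7%, 25.9%, 10.1% and 6.36%. Crtam was found in 6.54%, 7.47%, 3.37% and 0.448% of thinned cells, and Cd7 in 30.7%, 40.2%, 28.1% and 11.3%. Klrg1 was found in 2.61%, 2.78%, 2.25% and 5.92%. The Cd4 class had the lowest share of 5 genes and the highest share of Klrg1, as with the CPM. The unthinned shares were 35.2%, 39.8%, 15.1% and 10.6% for Klrk1, 32.6%, 39.3%, 20.4% and 10.7% for Klrc1, and 51.3%, 53.0%, 41.9% and 16.9% for Cd7. For Crtam they were 14.2%, 14.8%, 7.53% and 1.06%, and for Klrg1 7.42%, 5.67%, 7.53% and 8.57%.

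RNA that is free in the droplets gives some UMIs to cells that do not make a gene, so the shares were read beside 75 cells rich in macrophage genes and without a Cd3 UMI, whose median depth was 6619 UMIs, beside 3478 in the Cd4 class with all its cells. In these cells Klrc1, Klrg1 and Crtam had 0 UMIs, which allows a level of up to 5.12 CPM, Cd7 had 1.71 CPM and Klrd1 had 10.2 CPM. Klrk1 had 35.9 CPM there and was found in 8.33% of the thinned cells. The Klrk1 level of the Cd4 class, 37.9 CPM (34.3 to 41.8) and 6.23% of thinned cells, was close to that of these cells, and the part of free RNA in it was not tested.

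Pooled over their classes, the 72 cells holding NK genes had 679 CPM of Klrd1, found in 90.3% of them, 492 CPM of Klrk1 (81.9%) and 278 CPM of Klrc1 (58.3%), beside 259, 191 and 175 CPM in the Cd8 class without them. Cd7 stood at 405 CPM (68.1%), Klrg1 at 80.5 CPM (22.2%) and Crtam at 34.5 CPM (13.9%), beside 365, 18.1 and 37.6 CPM in the Cd8 class without them. They also held 3709 CPM of Gzma, which encodes granzyme A, 1512 CPM of Tyrobp, which encodes the adaptor DAP12, and 646 CPM of Cd8b1.

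Within the Cd8 class these cells held 2.13% of all UMIs but 5.62% of those of Klrd1, 6.20% of Klrk1, 4.06% of Klrc1, 10.8% of Klrg1, 2.55% of Crtam (13 UMIs) and 3.16% of Cd7. In the Cd8 class each member thus had a larger share of its UMIs in these cells than all genes together, Crtam by the least. Within the Cd4 class they held 1.22% of all UMIs, and 13.2% of those of Klrd1, 9.07% of Klrk1, 3.77% of Klrc1, 0.930% of Klrg1, 6.25% of Crtam and 1.87% of Cd7. Removing them lowered Klrd1 to 259 CPM, against 269 CPM with them, in the Cd8 class, and to 50.5 CPM, against 57.5 CPM with them, in the Cd4 class. No member changed the direction of its fold between these classes. After the removal 4 of 11 NK marker genes were still measured, at a summed 642 CPM in the Cd8 class and 271 CPM in the Cd4 class, mostly from Tyrobp and Fcer1g, adaptor genes that macrophages make too. Their part in the members' values was not tested.

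**Figure D2:**
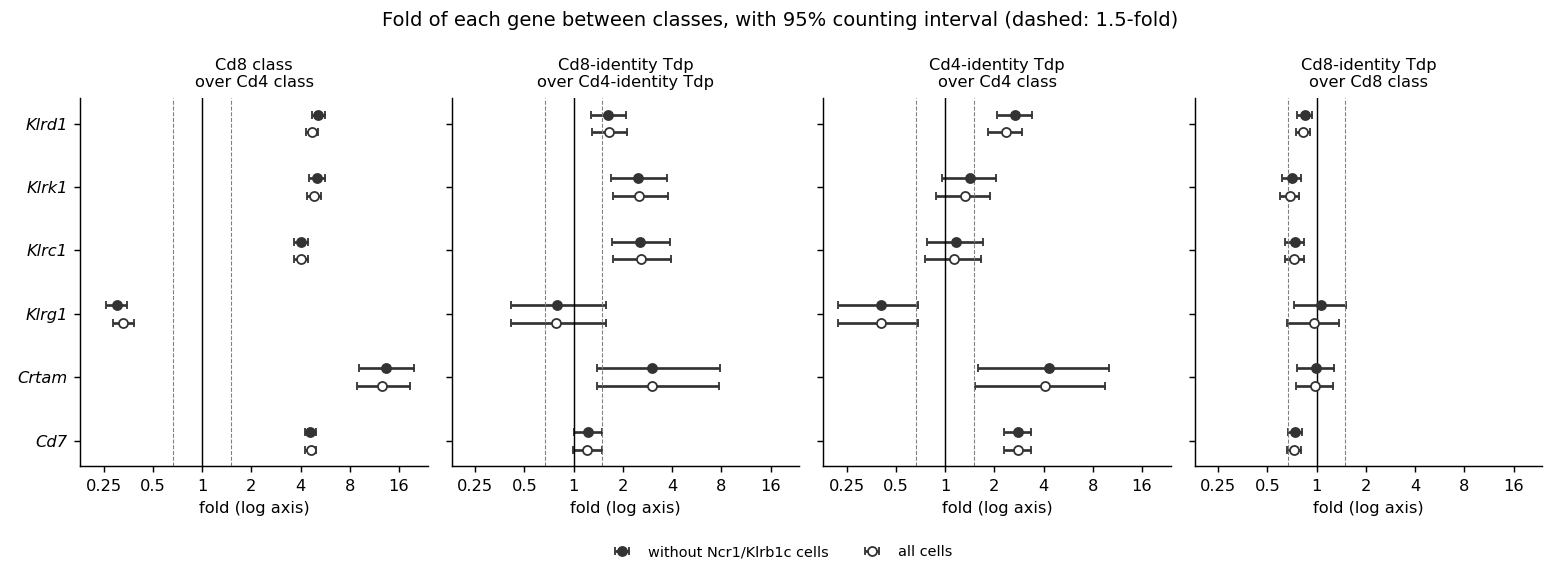
Folds of the 6 genes in the 4 comparisons of classes (horizontal log axes), with 95% intervals for counting error, without cells holding a Ncr1 or Klrb1c UMI (filled) and for all cells (open); dashed lines mark 1.5-fold. The pairs of points lie close together for every gene, and Klrg1 is the gene on the lower side of the line of equal levels in the Cd8 class over the Cd4 class.

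Cd8-identity Tdp cells were set beside the Cd8 class to see whether cells with both co-receptor RNAs differ in these receptors. Over all cells, none of the 6 genes passed 1.5-fold, beside 5.12% of 11122 genes that were higher and 11.9% that were lower (5.14% and 11.9% without the cells holding NK genes). For every member the hashtag levels of the classes overlapped. Klrk1 was 1.46-fold lower (1.28 to 1.66), Klrc1 1.37-fold lower (1.20 to 1.57), Cd7 1.37-fold lower (1.25 to 1.51) and Klrd1 1.21-fold lower (1.09 to 1.34) over all cells. Crtam, at 37.0 CPM in Tdp cells and 37.6 CPM in the Cd8 class, and Klrg1, at 19.3 and 18.1 CPM, lay within counting error. With cells limited to those with a UMI of Cd8a or Cd8b1, Klrk1, Klrc1 and Cd7 passed 1.5-fold, with log2 ratios of -0.70, -0.67 and -0.67. These 3 genes therefore sit near the limit, and their count depends on which cells of the Cd8 class are taken.

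The macrophage markers moved with this comparison: all 10 were lower in Cd8-identity Tdp cells, at a summed 342 CPM, against 1011 CPM in the Cd8 class. The sums were 59.4 CPM in Cd4-identity Tdp cells and 469 CPM in the Cd4 class. All 10 were likewise higher in the Cd8 class than in the Cd4 class, and their part in the members' values was not tested. The levels of Klrc1, Klrg1 and Crtam in macrophage-gene cells were 0, as given above. The 346 cells of the Cd8 class with no Cd8a or Cd8b1 UMI were low in 5 members. Cells with such a UMI had 297 CPM of Klrd1 and cells without one 60.4, a fold of 4.91, and 205 and 16.2 CPM of Klrc1, a fold of 12.7. Klrk1 had 216 and 55.6 CPM, Crtam 43.7 and 5.23 CPM, and Cd7 423 and 61.8 CPM, while Klrg1 had 17.6 and 20.9 CPM.

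Cd4-identity Tdp cells had more Klrd1, Cd7 and Crtam than the Cd4 class and less Klrg1, so 3 members were higher and 1 was lower, beside 8.99% of 10690 genes higher and 17.7% lower (8.96% and 17.8% without the cells holding NK genes). Klrd1 was 2.34-fold higher (1.82 to 2.97) over all cells and 2.66-fold higher (2.07 to 3.39) without the cells holding NK genes, and Cd7 was 2.77-fold higher (2.28 to 3.34). Crtam was 4.09-fold higher (1.52 to 9.43) on 7 UMIs in the Tdp cells. Klrg1 was 2.46-fold lower (1.46 to 4.53). Only Klrd1 and Klrg1 had hashtag levels that did not overlap between these classes. Klrc1, at 50.7 CPM in Tdp cells and 43.4 CPM in the Cd4 class, and Klrk1, at 54.2 and 37.9 CPM, had intervals of the fold that include 1.

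A cell with 2 UMIs or more for each of at least 2 Trbv genes, the variable genes of the T cell receptor beta chain, shows a sign of 2 cells in a droplet. This sign was found in 60 of 310 Cd8-identity Tdp cells, 339 of 2626 cells of the Cd8 class and 229 of 2463 cells of the Cd4 class. Of the 93 Cd4-identity Tdp cells, 36 showed it and 57 did not. Klrk1 had 92.5 CPM (27 UMIs) with the sign and 14.3 CPM (4 UMIs) without it, Cd7 had 257 and 186 CPM, and Klrd1 had 144 and 125 CPM. Klrc1 had 58.2 and 42.8 CPM. Crtam had 17.1 CPM (5 UMIs) with the sign and 7.13 CPM (2 UMIs) without it, so most UMIs behind its fold came from cells with the sign, and Klrg1 had 17.1 and 32.1 CPM. Without these cells the log2 ratio of Klrk1 in Cd4-identity Tdp cells over the Cd4 class was -1.51, so its direction turned, and that of Crtam was 1.46. Klrd1 stayed above the 50.5 CPM of the Cd4 class. Of the 31 Klrk1 UMIs of Cd4-identity Tdp cells, 64.5% came from 5 cells.

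Between the Tdp classes 4 members were higher in Cd8-identity than in Cd4-identity cells and 0 were lower, beside 13.2% of 8159 genes higher and 8.48% lower (13.1% and 8.51% without the cells holding NK genes). Klrd1 was 1.65-fold higher (1.29 to 2.14), Klrk1 2.52-fold (1.73 to 3.79), Klrc1 2.57-fold (1.75 to 3.92) and Crtam 3.00-fold (1.38 to 7.74). The hashtag levels of Klrd1, Klrk1 and Klrc1 did not overlap, with number 3 of the Cd4-identity Tdp cells left out for its 9 cells. For Klrd1 and Klrc1 the gap was small. Without the cells holding NK genes, the lowest Cd8-identity Tdp level of Klrd1 was 181.9 CPM and the highest Cd4-identity Tdp level 180.6 CPM. For Klrc1 these levels were 104.6 and 100.7 CPM. The share of all genes without overlap was not counted. Cd7 was 1.21-fold higher (0.994 to 1.48), and the interval of Klrg1, which was 1.28-fold lower (0.637 to 2.43), also includes no difference. Its direction turned without cells holding a Foxp3 UMI, to a log2 ratio of 2.09. That ratio rests on 2 Klrg1 UMIs in the 75 Cd4-identity Tdp cells left.

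Within the Cd4 class, Klrg1 was concentrated in cells with a UMI of Foxp3, the factor that defines regulatory T cells; this split was chosen after its values were seen. The 553 cells with a Foxp3 UMI had 182, 244, 181 and 290 CPM of Klrg1 in hashtag numbers 1 to 4, and the 1910 cells without one had 18.9, 11.98, 14.5 and 16.6 CPM. Every number of the first group was far above every number of the other. The fold was 13.1 (10.8 to 16.0), and Klrg1 was found in 21.4% of thinned cells with a Foxp3 UMI and 1.66% of those without. By the same rule 12.5% of 10600 genes were higher and 12.4% lower.

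Klrd1, Klrk1 and Klrc1 went against Klrg1 there, while Crtam and Cd7 went the same way by far smaller folds. Klrd1 had 27.3 CPM in Cd4 class cells with a Foxp3 UMI and 57.3 CPM in those without, a level 2.10-fold lower, Klrk1 had 21.0 and 42.9 CPM (2.04-fold lower), and Klrc1 had 18.1 and 50.8 CPM (2.81-fold lower). Each was lower in 4 of 4 hashtag numbers. Cd7 had 92.8 and 75.7 CPM, 1.23-fold higher (1.05 to 1.43) with a Foxp3 UMI and higher in 4 of 4 numbers. Crtam had 5.04 and 2.20 CPM, 2.29-fold higher (1.01 to 5.03) and higher in 3 of 4 numbers, at levels close to 0. Without cells holding a Foxp3 UMI the log2 ratio of Klrg1 in the Cd8 class over the Cd4 class was 0.055, against -1.60 with them.

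Seen from the cells that hold it, Klrg1 came with Foxp3 where the identity was Cd4. A Foxp3 UMI was found in 1 of 23 Klrg1 cells among Cd8-identity Tdp cells (4.35%), in 14 of 149 in the Cd8 class (9.40%), in 5 of 7 among Cd4-identity Tdp cells (71.4%) and in 150 of 211 in the Cd4 class (71.1%, 64.5 to 77.1). In Cd4-identity Tdp cells Klrg1 had 95.7 CPM on 12 UMIs in the 18 cells with a Foxp3 UMI and 4.5 CPM on 2 UMIs in the 75 others.

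**Figure D3:**
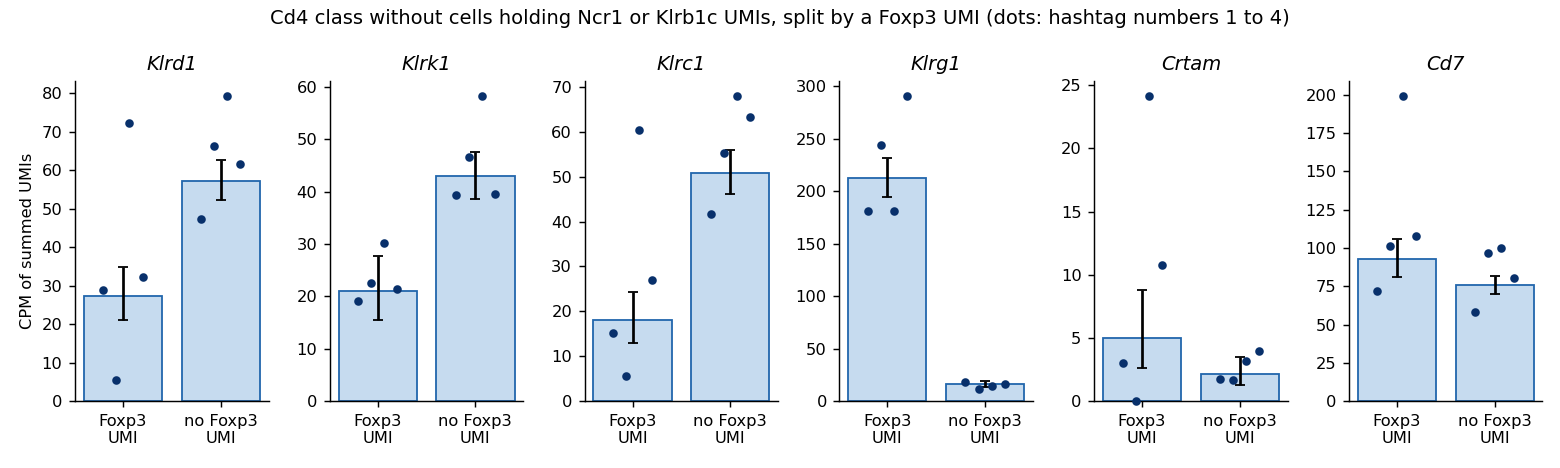
Levels of the 6 genes in CPM of summed UMIs (vertical axes) in Cd4 class cells with and without a Foxp3 UMI, without cells holding a Ncr1 or Klrb1c UMI; bars are sums with 95% Poisson intervals and points are hashtag numbers. Klrg1 stands at 212 CPM with a Foxp3 UMI and 16.2 CPM without, while Klrd1, Klrk1 and Klrc1 are lower in the cells with one.

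Inside the Cd8 class the members differed by the state of the cell. Cells were put in turn into cycling cells (at least 3 UMIs over a list of cycling genes, 420 cells), cells with a UMI of Pdcd1, which encodes the checkpoint receptor PD-1 (948), cells with a UMI of Ccr7 or Lef1, genes of naive and memory T cells (448), and the rest (810). Their median depths were 7602, 3929.5, 4049 and 3659.5 UMIs. Between cells with a Pdcd1 UMI and those with a Ccr7 or Lef1 UMI, 4 members were higher and 0 lower, beside 8.84% of 9692 genes higher and 7.24% lower.

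Klrk1 and Klrc1 were the members that followed Pdcd1 most evenly. Klrk1 had 210, 318, 300.1 and 290 CPM in cells with a Pdcd1 UMI of hashtag numbers 1, 2, 3 and 4, against 144, 113, 132 and 108 CPM in cells with Ccr7 or Lef1, a fold of 2.35 (2.05 to 2.69). Klrc1 had 194, 306, 262 and 235 CPM, against 90.9, 115, 113 and 144 CPM, a fold of 2.21 (1.92 to 2.54). For neither gene did the groups overlap, and number 1 was the lowest with Pdcd1 for both. Klrd1, the partner chain of NKG2A, had 321 CPM in cells with a Pdcd1 UMI and 318 CPM in those with Ccr7 or Lef1. Its ratio was 1.01 (0.921 to 1.11), and it was higher in 2 of 4 numbers.

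Crtam had 16.4, 71.7, 57.1 and 58.6 CPM in cells with a Pdcd1 UMI and 25.1, 38.8, 44.9 and 24.3 CPM in those with Ccr7 or Lef1, so number 1 went against the other 3. Its fold was 1.55 (1.19 to 2.03). Klrg1 was 1.69-fold higher (1.06 to 2.79) at 19.1 and 11.3 CPM, higher in 3 of 4 numbers. Cd7 differed little, at 432 and 376 CPM, a ratio of 1.15.

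Cycling cells had the lowest level of the 4 states for Klrd1, Klrk1, Crtam and Cd7. Against cells with a Pdcd1 UMI, Klrd1 was 2.47-fold lower at 130 CPM, Klrk1 2.54-fold lower at 114 CPM, Klrc1 1.74-fold lower at 148 CPM, Crtam 3.17-fold lower at 17.5 CPM and Cd7 1.82-fold lower at 237 CPM, each in 4 of 4 hashtag numbers. Klrg1 had 22.2 CPM in cycling cells and 19.1 CPM in those with Pdcd1, but was higher in cycling cells in 1 of 4 hashtag numbers and lower in 3. Against the cells in none of the states, Klrc1 in cycling cells was 1.09-fold higher, so it was not low there, while Klrd1 was 2.12-fold lower. The part of the greater depth of cycling cells was not tested.

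Cd8-identity Tdp cells were also set beside the Cd8 class within each state except that of Ccr7 or Lef1. The intervals of Klrd1, Klrg1 and Crtam included no difference in each of these states. Among cells with a Pdcd1 UMI, Klrk1 was 1.32-fold lower (1.1003 to 1.585) in Tdp cells and Cd7 1.16-fold lower (1.01 to 1.34). Klrc1 was 1.16-fold lower there, with an interval that includes no difference (0.972 to 1.40). Among cycling cells Klrk1 was 1.71-fold lower (1.25 to 2.40) and Klrc1 1.74-fold lower (1.32 to 2.34), while Cd7 was 1.05-fold lower (0.883 to 1.27). Among the cells in none of the states, Klrc1 was 1.62-fold lower (1.09 to 2.51) and Cd7 1.72-fold lower (1.36 to 2.21), while Klrk1 was 1.29-fold lower (0.956 to 1.79). The differences between states were not tested.

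**Figure D4:**
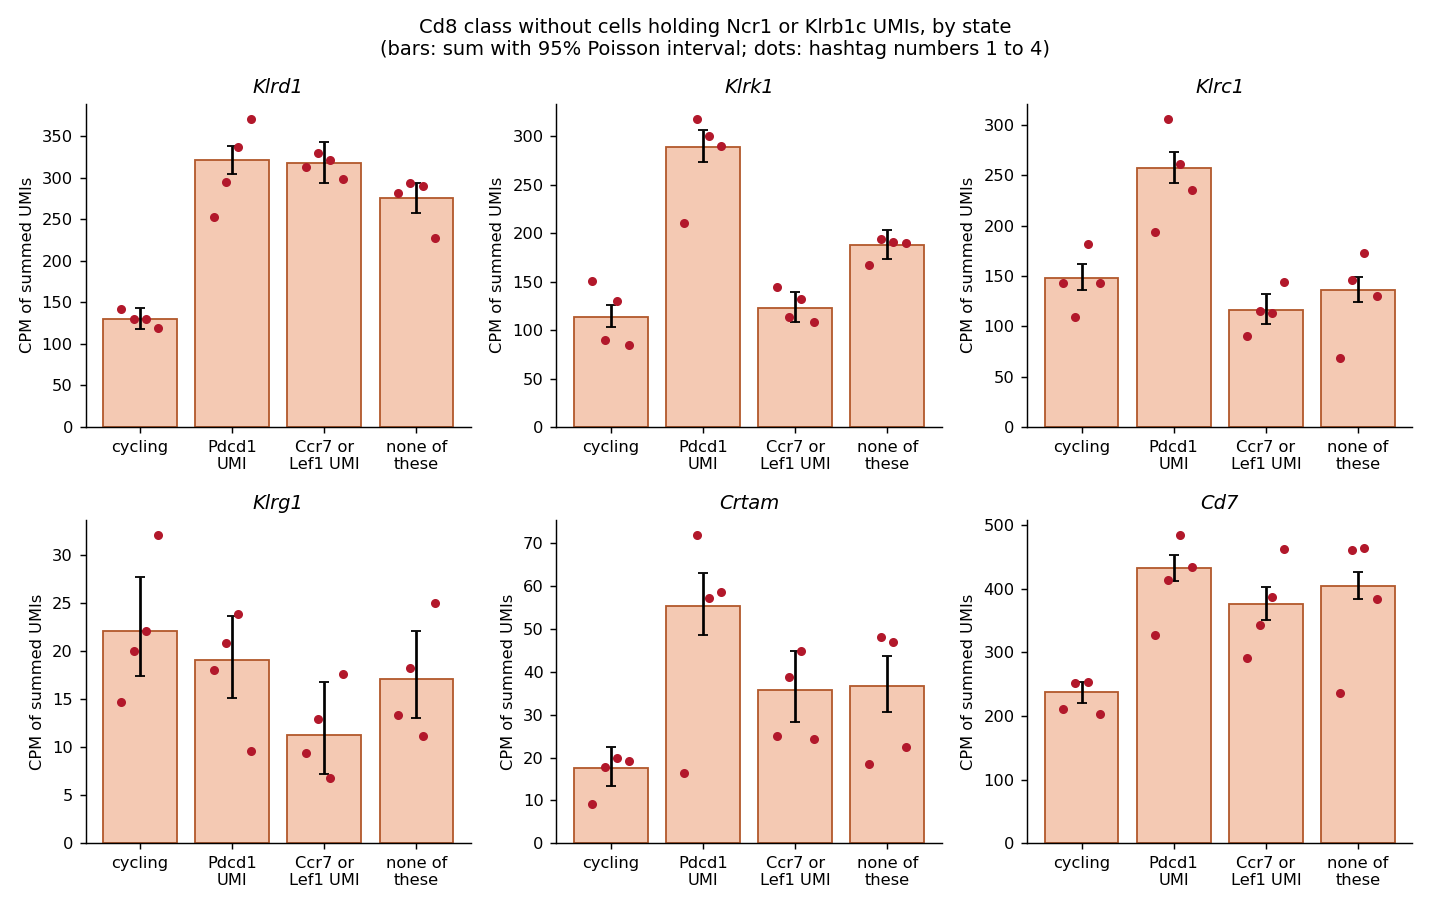
Levels of the 6 genes in CPM of summed UMIs (vertical axes) in 4 states of the Cd8 class, without cells holding a Ncr1 or Klrb1c UMI; bars are sums with 95% Poisson intervals and points are hashtag numbers. Klrk1 and Klrc1 are highest with a Pdcd1 UMI, at 289 and 258 CPM, and Klrd1 is alike with Pdcd1 and with Ccr7 or Lef1, at 321 and 318 CPM.

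Members were then read cell by cell in the 2449 thinned cells of the Cd8 class, as a description, since detection of any gene in a cell depends on shared quality even at equal depth. Klrk1 was found in 37.5% (34.3 to 40.8) of cells with Klrd1 and in 20.6% of those without, and Klrc1 in 35.0% and 20.9%. Klrc1 was found in 41.8% of cells with Klrk1 and in 20.2% of those without. The neighbouring genes Klrd1, Klrk1 and Klrc1 were thus each found more often in cells holding another of the 3. Cd7 was found in 48.6% of cells with Klrd1 and in 35.6% without, but at nearly equal shares with and without Klrk1 (41.0% and 39.9%).

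Cells with Crtam held Klrc1 in 38.3% and cells without it in 24.9%, and Klrk1 in 36.1% and 25.8%. The 68 cells with Klrg1 went the other way for Klrd1, found in 19.1% (10.6 to 30.5) with Klrg1 and in 36.0% without, and for Cd7, found in 23.5% (14.1 to 35.4) and 40.7%. Klrc1 was found in 32.4% of Klrg1 cells and in 25.7% of others, within the interval. Of all the thinned cells 24.99% held none of the 6 genes, 33.4% held 1, 24.7% held 2, 12.3% held 3, 4.002% held 4 and 0.531% held 5. No cell held all 6.

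**Figure D5:**
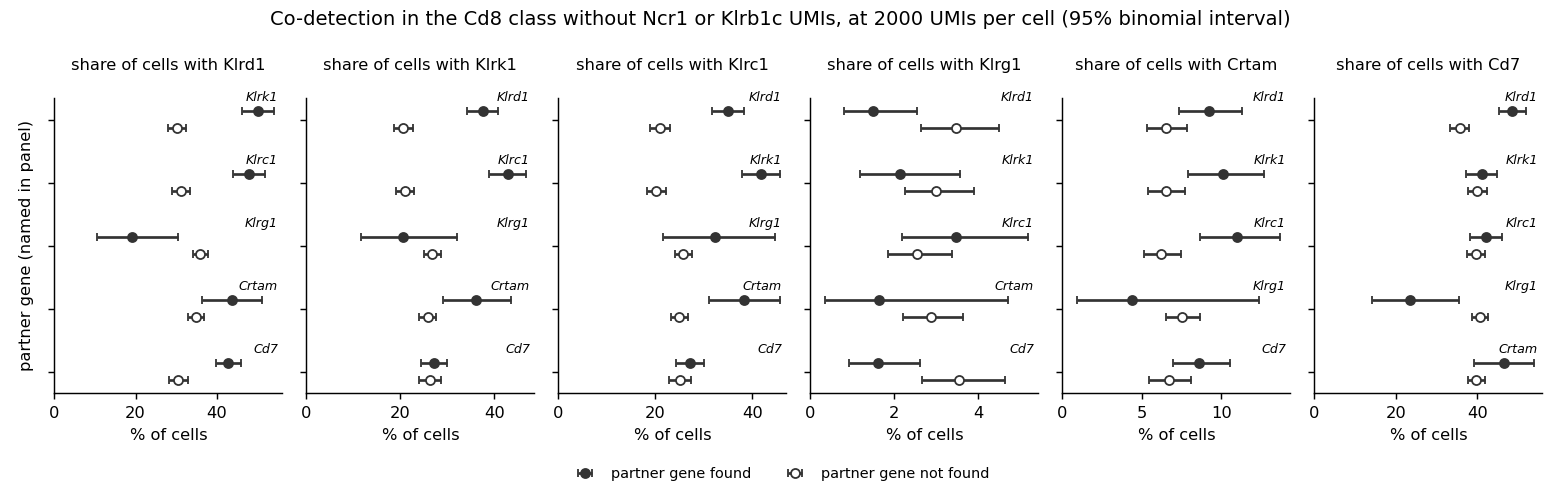
Share of thinned Cd8 class cells (horizontal axes, % of cells) in which each of the 6 genes was found, for cells in which a partner gene was found and was not found, with 95% binomial intervals. Klrd1, Klrk1 and Klrc1 are found more often together, and Klrd1 and Cd7 less often in the 68 cells with Klrg1.

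Genes that differed between cells with and without a member were compared by a restricted choice of cells added after seeing the data, which used thinned counts, required a UMI of Cd8a or Cd8b1 and left out cells with at least 2 UMIs of other cell types. Without that limit the lowest genes were those of myeloid cells, among them Tyrobp, Cebpb and Cd74. Between 671 cells with Klrd1 and 1042 without, 5.62% of 8540 genes were higher and 7.27% lower. Klrk1 was 1.98-fold higher, Klrc1 1.64-fold higher and Ccr2, a chemokine receptor that guides cells into inflamed tissue, 1.67-fold higher. The lowest were genes of dividing cells, with Hist1h2ae (a histone) 2.61-fold, Pclaf (a replication factor) 2.51-fold and Rrm2 (nucleotide synthesis) 2.31-fold lower.

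Cells with Klrk1 (500, against 1213 without) gave a like list. Beside 5.52% of genes higher and 8.59% lower, Klrc1 was 2.50-fold, Ccr2 1.91-fold and Klrd1 1.63-fold higher, while Mki67 and Birc5, genes of dividing cells, were 2.07-fold and 1.95-fold lower. For cells with Klrc1 (500, against 1213 without), 5.28% of genes were higher and 8.21% lower. Klrk1 was 2.27-fold higher, Gzma 2.28-fold and Fasl, a death ligand, 1.68-fold higher. Prf1, which encodes perforin, had 81.3 CPM in cells with Klrc1 and 46.3 CPM in those without, and Id3, a factor of memory cells, had 16.1 and 45.9 CPM. The factor gene Ikzf2 was 1.98-fold lower.

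The 55 cells with Klrg1 differed from the 1658 without in some genes of effector cells and of dividing cells, though on few cells: 18.9% of genes were higher and 28% lower. Gzma had 894 CPM with Klrg1 and 130 CPM without, a fold of 6.87, and was found in 18.2% and 8.32% of the cells. Of the genes of dividing cells, Hist1h2ae had 611 and 194 CPM and Ccna2 164 and 50.9 CPM. Gzmb, which encodes granzyme B, had 602 and 300 CPM, and Cx3cr1, a chemokine receptor of effector cells, 82.1 and 23.9 CPM. Il7r, which encodes the interleukin 7 receptor of long-lived cells, had 109 and 388 CPM, 3.54-fold lower. Of 25 measured effector genes, 6 were higher and 10 lower in cells with Klrg1.

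For the 140 cells with Crtam, against 1573 without, 11.4% of genes were higher and 17.8% lower. Nr4a2, an early-response factor, was 3.02-fold higher and found in 13.6% and 5.91% of the cells. Gzmb was 2.32-fold lower and Gzma had 57.4 CPM with Crtam and 163 CPM without. Ccl4, a chemokine, was 3.90-fold higher by its sum, but 131 of the 221 UMIs came from 1 cell, and it was found in 14.3% and 10.8% of the cells. The interferon gamma gene Ifng, chosen after its values were seen, had 523 and 59.99 CPM, with 114 of 146 UMIs in 1 cell and a share of 7.14% and 8.58% of the cells.

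For the 732 cells with Cd7, against 981 without, 5.94% of genes were higher and 6.7% lower. Il7r was 1.74-fold higher and the integrin gene Itgb1 1.60-fold higher, whereas Eomes, a T-box factor of cytotoxic cells, was 2.82-fold lower. Ccl4 was 2.69-fold lower by its sum, but was found in 9.97% of cells with Cd7 and 11.9% of those without. In the Cd8 class before thinning and the added limits, 641 of 2994 Ccl4 UMIs came from a single cell. Itgae, which encodes an integrin of tissue-resident T cells, had 32.9 CPM with Cd7 and 5.12 CPM without, a fold of 6.43, and was found in 4.64% and 0.917% of the cells. Of the 25 measured effector genes, cells with Klrd1 had 2 higher and 1 lower, those with Klrk1 2 and 2, with Klrc1 3 and 5, with Crtam 3 and 7, and with Cd7 2 and 6.

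Genes with the pattern most like each member were ranked by Pearson's r of log2(CPM + 5) over the 15 combinations of class and hashtag number with at least 20 cells, among 7607 genes; these points share 1 library. Klrd1 was most like Cd8b1 (0.980), the chemokine gene Ccl5 (0.961) and Slamf7 (0.952). Klrk1 was most like Ifitm10 (0.937), Dapl1 (0.927) and Eomes (0.918), followed by Klrc1 (0.911), and Klrk1 was in turn the gene most like Klrc1. Among the 5 genes most like Crtam was Tox, a factor of exhausted T cells (0.890), and Cd7 was most like Ugcg (0.951), Samd3 (0.941) and Cd160 (0.933). Klrg1 was most like Rtp4 (0.898) and Cd82 (0.883), and its r with Klrd1 was -0.889.

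The partners of the members were taken from lists of their adaptors, ligands and relatives. Hcst, the adaptor of NKG2D, had 806 CPM in Cd8-identity Tdp cells and 718 CPM in the Cd8 class. It had 701 CPM where Tdp cells had a Cd4 identity and 690 CPM in the Cd4 class, so it passed 1.5-fold in none of the 4 comparisons. Of 11 adaptor and signalling genes, 3 were higher in the Cd8 class than in the Cd4 class and 0 lower, with a median log2 ratio of 0.14 beside -0.01 for all genes. The 3 were Tyrobp (304 and 123 CPM), Fcer1g (324 and 138 CPM) and Syk (12.2 and 5.20 CPM), which myeloid cells also make, and the same 3 were lower in Cd8-identity Tdp cells than in the Cd8 class. H2-T23, the ligand of CD94 with NKG2A, had 468 CPM in the Cd8 class and 635 CPM in the Cd4 class.

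Other NK receptor genes were counted from a list of 32, of which 28 were in the table. Over all cells 15 of 21 measured were higher in the Cd8 class than in the Cd4 class and 0 were lower. Of all measured genes, 10.2% were higher and 8.42% lower. Without the cells holding NK genes 8 of 13 were higher and 1 was lower, beside 10.2% and 8.6% of all measured genes. Cd160, a receptor for the ligand HVEM, had 85.1 CPM in the Cd8 class and 12.3 CPM in the Cd4 class, 6.92-fold higher, and Slamf7, a receptor that binds itself, had 144 and 59.0 CPM. Klrc2, the activating partner of CD94, had 6.95 and 1.61 CPM in the 2 classes and 85.1 CPM in the cells holding NK genes. Klrc3 was at 0.227 CPM in the Cd8 class. Near-identical members of this family share sequence, so reads may be split between Klrc1, Klrc2 and Klrc3.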

How the data were processed

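The RNA library was made with a droplet 5′ kit from about 6200 loaded cells, per the labels' protocols. The authors deposited raw UMI counts by gene and cell, raw counts for 138 antibodies, and a class and hashtag number for each cell. Cell Ranger 3.1.0, Seurat 3.2.3 and build mm10 are named in the submitters' processing notes; the sources used here do not give the filters, the class calls or the treatment of doublets. The hashtag and T cell receptor libraries were not analysed here.

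Counts of 5564 cells were summed per class and divided by all UMIs except those of 118 T cell and B cell receptor genes (0.331% of UMIs). Intervals are exact Poisson (levels), exact conditional binomial (folds) and Clopper-Pearson (shares), at 95%. Median log2 ratios of gene lists used a pseudocount of 5 CPM, and the ranking of genes in cells with against without a member used 20 CPM. Log2 ratios of single members had no pseudocount. Thinning to 2000 UMIs kept 5143 cells. Named genes were the 5 highest and 3 lowest with at least 50 UMIs and a UMI in 10% of cells, or the 5 most alike; the text names part of these, 1 gene that the rule selects is not reported here, and effector genes come from a list. The summed UMI total is smallest for Cd4-identity Tdp cells. The sums were tested on simulated counts. Members and lists were chosen with earlier results of these data known. Python 3.11.15, scipy 1.17.1, pandas 2.3.3 and edgeR 4.0.16 (scaling only) were used.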

Additional observations from a re-analysis of the deposited data

Results flagged for a closer look

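The antibody table was not used in any comparison, and it is nearly empty, with 4315 counts over 138 antibodies and 5564 cells. It held 10 counts for the KLRG1 antibody, each in a different cell, beside 2 to 3 counts for each of 3 isotype controls. Of these 10 cells, 5 had a Klrg1 UMI and 6 a Foxp3 UMI, and 5 had a Cd8 and 5 a Cd4 identity. Antibodies to NKp46 and NK-1.1 had 5 and 1 counts.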

How the results depend on the processing

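Each count of members past 1.5-fold, in either direction together, was recomputed under 16 alternatives, and those for the Cd8 class over the Cd4 class, the Cd4-identity Tdp cells over the Cd4 class and the Tdp classes stayed within 1.5 times of their main value. Within them, the 1 lower member of the Cd8 class over the Cd4 class became 0 without cells holding a Foxp3 UMI, and the 1 lower member of Cd4-identity Tdp cells over the Cd4 class became 2 without cells holding 2 Trbv genes. For Cd8-identity Tdp cells over the Cd8 class, where 0 of 6 passed, 3 were lower with a co-receptor UMI required, 2 after thinning to 2000 UMIs, and 1 each with TMM scaling, the mean of per-cell CPM and without cells holding 2 Trbv genes; the cause was not tested. Of 312 log2 ratios under alternatives, 260 lay inside the counting interval of the main value. Among ratios past 1.5-fold 1 turned, namely Klrg1 in the Cd8 class over the Cd4 class, at 0.055 without cells holding a Foxp3 UMI, an alternative chosen after seeing the data. Ratios that had not passed 1.5-fold changed sign under 16 alternatives in 6 of the member comparisons, most of all Klrk1 in Cd4-identity Tdp cells over the Cd4 class (-1.51 without cells holding 2 Trbv genes) and Klrg1 between the Tdp classes (2.09 without cells holding a Foxp3 UMI). Log2 ratios of the Cd8 class over the Cd4 class ranged from 2.07 to 2.68 for Klrd1, 2.13 to 2.48 for Klrk1, 1.77 to 2.30 for Klrc1, 2.98 to 4.39 for Crtam and 1.96 to 2.82 for Cd7. No paired analysis was possible because 1 library holds all groups. Depth limits Crtam and Klrg1 in Cd4-identity Tdp cells, at 7 and 14 UMIs. Without cells holding a Foxp3 UMI, Klrg1 was left with 2 UMIs in these cells.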
